A study of Saccharomyces cerevisiae with 36 samples.

Results

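The PAU genes encode the seripauperins, a family of small serine-poor proteins related to cell-wall mannoproteins, many of them encoded near the chromosome ends of the yeast Saccharomyces cerevisiae. Described here are 10 of them, PAU1 (YJL223C), PAU2 (YEL049W), PAU3 (YCR104W), PAU4 (YLR461W), PAU5 (YFL020C), PAU6 (YNR076W), PAU7 (YAR020C), PAU13 (YHL046C), PAU14 (YIL176C) and PAU17 (YLL025W). They were taken by open reading frame name, with earlier results of these data known, and all 10 have a row among the 6295 of the deposited table. The table holds 24 PAU rows in all, and the other 14 are used below for comparison.

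As background, PAU genes are induced by anaerobic growth, by cold and during fermentation, and most members have no separately known role. They share this behaviour with the DAN and TIR genes, which encode cell-wall mannoproteins of anaerobic cells. In aerobic cells the haem-responsive activator Hap1 maintains the repressor Rox1, and other repressors and the activator Upc2 act on the same anaerobic genes.

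The arrays, 36 in all, compared pairs of RNA samples by dual-colour hybridisation, and each value is read as a log2 ratio of the channels. Cultures of hap1D and msn2D, which are deletions of HAP1 and of the stress activator gene MSN2 in the YPS163 MATa background, were set beside YPS163 MATa, beside the wild strains YPS163, an oak isolate, and M22, a vineyard isolate, and beside DBY8268, the laboratory strain that stands for the S288c reference. All grew in log phase in the rich medium YPD at 30 °C, and the treated cultures received ethanol to 5% by volume, a stress that every ethanol array sets against unstressed cells of the same strain. Each of the 6 strains has ethanol arrays at 30 min, and YPS163, M22 and DBY8268 have 1 further array each at 15, 45 and 60 min. Log-phase arrays without ethanol set hap1D over YPS163 MATa, YPS163 over DBY8268 and M22 over DBY8268. Groups have 3 arrays, described by the submitters as biological triplicates, except YPS163 MATa in ethanol, for which 2 are used. The labels name no ploidy, and they do not say whether a deletion strain is 1 clone.

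Several facts of the whole table bear on what follows. The direction of the ratios is likely rather than certain, because the labels do not state it. HAP1 itself lay at -3.47 ± 0.61 (SD, n = 2) in hap1D over YPS163 MATa once that comparison was turned to hap1D on top. MSN2 cannot be checked, since both channels of an msn2D array come from the deletion. Ethanol array 3 of YPS163 MATa was left out because its values correlated at 0.164 with the mean of arrays 1 and 2 as deposited and at 0.747 after a move by 1 table position. PAU5 had no value on any of the 11 arrays of YPS163 MATa, hap1D and msn2D that were used, so it is described in the other strains alone, and the other members had values on 33 to 35 of 35 arrays. Arrays carried between 4981 and 6093 values. The number of arrays limits the precision, as no intensities were used. A ratio compares labelled RNA, so RNA per cell and the share of a transcript in that RNA cannot be told apart.

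The family is made of near-identical copies whose probes may cross-hybridise, and how far the members have values of their own was described by the correlations between them over the arrays. Across the 45 pairs of members, Pearson's r ran from 0.255 to 0.995 with a median of 0.65, over 22 to 35 arrays that share strains, cultures and dyes. PAU1 and PAU14 behaved as 1 signal. Their r was 0.995 over 33 arrays, and their values differed by a median of 0.07 log2 units. By correlation, PAU2, PAU6 and PAU13 formed a second group. Its r was 0.929 between PAU2 and PAU13, 0.914 between PAU6 and PAU13 and 0.894 between PAU2 and PAU6. The values lay further apart here, by medians of 0.21, 0.45 and 0.46 log2 units in that order. PAU13 had a higher r with PAU12 (0.956) and PAU10 (0.951), which are outside the 10. PAU7 followed the other members least, with r between 0.255 and 0.422. The counts and medians below list both PAU1 and PAU14, so they hold this signal under both names. No probe sequences were used here, and whether other pairs share signal was not tested.

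**Figure D1:**
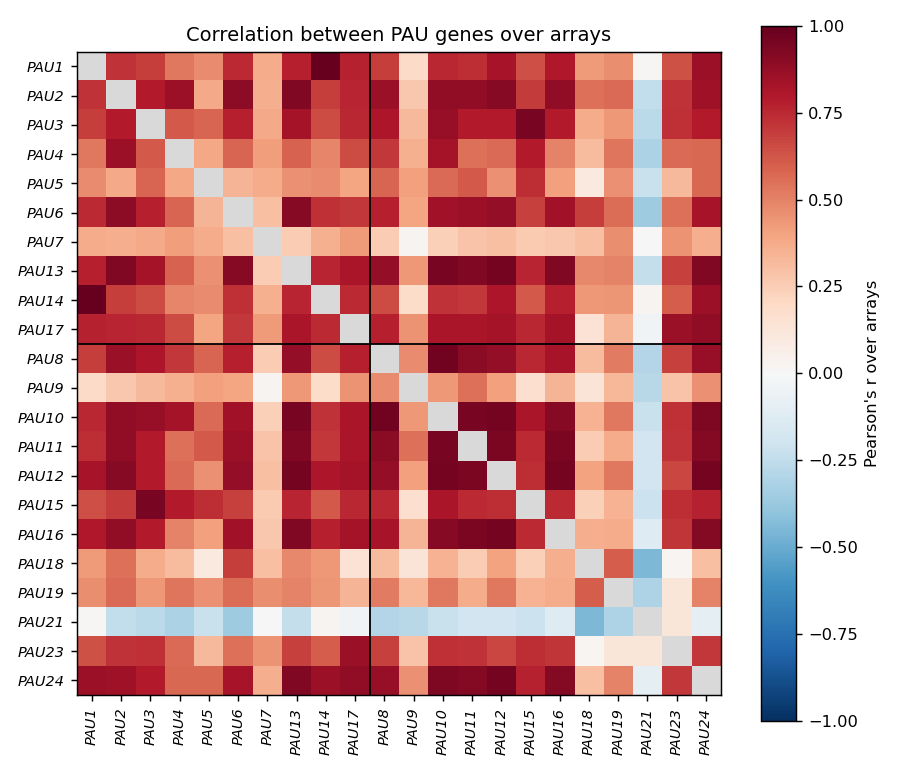
Pearson's correlation of log2 ratios over arrays for each pair of 22 PAU genes, on a colour scale from -1 (blue) to 1 (red), with black lines separating the 10 genes described (top left) from 12 others. PAU20 and PAU22, with 11 and 15 values, are not drawn. PAU1 and PAU14 reach 0.995, while PAU7 reaches at most 0.422 with any other of the 10.

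Ethanol at 30 min raised all 10 members in YPS163 and in DBY8268, and 8 of 10 in M22. Under limma, with Benjamini-Hochberg adjustment over all rows, 30.5% of rows were higher in YPS163, 32.2% in M22 and 28.6% in DBY8268, and 30.0%, 29.8% and 31.1% were lower. No member fell. The members' median response was 1.16 in YPS163, 0.89 in M22 and 1.33 in DBY8268 on the log2 scale, beside medians of 0.02, 0.03 and 0.02 over all rows tested. Fitted folds lay between 1.4 and 2.58 in YPS163, up to 2.93 in M22 and between 1.47 and 4.86 in DBY8268. With arrays scaled to the same spread, 6, 2 and 6 members passed.

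PAU3 gave the strongest member response in M22 and DBY8268 but not in YPS163. Its log2 ratios were 0.58, 1.22 and 1.63 in YPS163, 1.30, 1.97 and 1.39 in M22, and 2.24, 2.49 and 2.11 in DBY8268. No array of either wild strain reached the lowest DBY8268 array. The means were 1.14 ± 0.53, 1.55 ± 0.36 and 2.28 ± 0.19 (SD, n = 3 each), and the adjusted p-values from limma were 1.64e-05 in YPS163, 2.93e-07 in M22 and 1.56e-09 in DBY8268.

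PAU6 stood at the other end. It had ratios of 0.09, 0.59 and 0.77 in YPS163, of -0.18, 0.01 and 0.07 in M22, and of 0.66, 0.52 and 0.48 in DBY8268. All M22 arrays lay below all DBY8268 arrays and around no change. Limma gave an adjusted p of 0.00609 in YPS163, 0.855 in M22 and 0.00234 in DBY8268. Without YPS163 ethanol array 3 the PAU6 response in YPS163 was 0.34 with an adjusted p of 0.0983.

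The pair PAU1 and PAU14 rose in these strains. PAU1 had ratios of 0.71, 1.42 and 1.86 in YPS163, 0.99, 1.20 and 1.20 in M22, and 1.06, 1.23 and 2.16 in DBY8268. The ranges overlapped, with the highest array in DBY8268 and the lowest in YPS163, and the fitted folds were 2.51 in YPS163, 2.19 in M22 and 2.8 in DBY8268. PAU5 had ratios of 0.81, 1.14 and 1.97 in YPS163, 0.91, 1.01 and 0.96 in M22, and 1.06, 1.61 and 1.84 in DBY8268. Every M22 array of PAU5 lay below every DBY8268 array, while YPS163 spanned both. With so few arrays, groups can separate without any difference, for PAU5 as for PAU3 and PAU6 above. The share of all rows that separated so is not given.

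PAU2, PAU7, PAU13 and PAU17 rose in all of these strains too. Their fitted log2 responses were between 1.03 and 1.18 in YPS163, between 0.66 and 1.01 in M22, and between 0.93 and 1.22 in DBY8268. PAU7 in M22 depended on 1 array. Its M22 ratios were 0.29, 0.67 and 1.22, and without array 3 the value was 0.48 with an adjusted limma p of 0.0795.

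PAU4 had ethanol ratios of 0.96, 1.31 and 1.83 in YPS163, 0.86, 0.81 and 0.80 in M22, and 1.09, 1.49 and 1.94 in DBY8268. Its response passed the limma threshold in YPS163 (1.37 ± 0.46, SE, adjusted p = 0.0138) and DBY8268 (1.51 ± 0.46, adjusted p = 0.00822) but not in M22 (0.82 ± 0.46, adjusted p = 0.127). The standard error is shared by all groups and holds 2 log-phase arrays on which PAU4 stood far from its replicates, described with the log-phase comparisons. In a fit of the M22 ethanol arrays alone the adjusted p was 0.00814. Without ethanol array 3 of DBY8268 the response there was 1.29 with an adjusted p of 0.0644, and without array 3 of YPS163 the response there was 1.14 with an adjusted p of 0.0989.

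**Figure D2:**
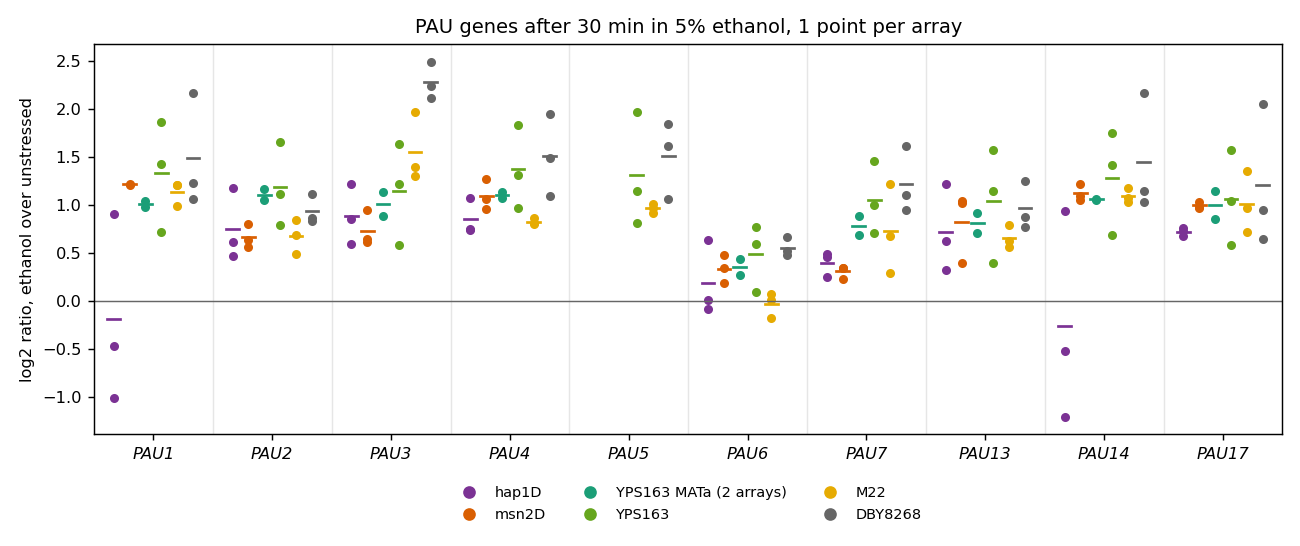
Log2 ratio of ethanol over unstressed cells at 30 min for the 10 PAU genes, with 1 point per array, a bar at the group mean and strains side by side within each gene. Most points lie between 0.5 and 2, PAU3 in DBY8268 lies above 2.1, PAU6 in M22 lies around 0, and PAU1 and PAU14 in hap1D (left) reach -1.02 and -1.21.

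The YPS163 MATa response was like that of YPS163 in direction. Of the 9 members with values, 7 rose and none fell, where 24.5% of rows rose and 27.7% fell, and the members' median was 1.0 against -0.04 for all rows. PAU1 had ratios of 0.98 and 1.04, PAU2 of 1.16 and 1.05, and PAU14 of 1.06 and 1.05, so the arrays lay close together. PAU4 (1.1 ± 0.56, SE) and PAU6 (0.35 ± 0.17) did not pass. With only 1 array left in the group, which is then assumed to vary like the other groups, 3 members passed whichever array was left out. The test of the difference between YPS163 MATa and YPS163 called 0 of 9 members in limma, and 0 at an unadjusted p under 0.05, with 0.719% of rows called. All 9 differences were below 0, between -0.32 and -0.07, each smaller than its standard error.

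The time course asked when the PAU response occurs. It has 1 array per strain and time, so the values have no replicate check. The 30 min point is the array numbered 1 of each strain. The members' median log2 ratio was 1.26, 0.69, 0.31 and 0.37 at 15, 30, 45 and 60 min in YPS163. It was 2.02, 0.88, 0.28 and 0.58 in M22, and 1.9, 0.98, 0.58 and 0.76 in DBY8268. The medians were highest at 15 min in each strain and lowest at 45 min. The median over all rows stayed between -0.05 and 0.1.

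A log2 ratio of at least 1 was reached at 15 min by 8 of 10 members in YPS163, 7 of 10 in M22 and 8 of 10 in DBY8268. The shares of all rows at that level were 13.6%, 15.3% and 12.6%. At 30 min it was reached by 0 members in YPS163, where 15.0% of rows were, by 2 in M22, where 14.5% were, and by 5 in DBY8268, where 14.9% were. At 45 min the counts were 0 of 10 in YPS163, 0 of 10 in M22 and 1 of 10 in DBY8268, beside 14.1%, 13.9% and 11.9% of rows. At 60 min they were 0 of 8, 0 of 10 and 2 of 9, beside 16.3%, 14.6% and 14.1% of rows.

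Among members with all 4 times, 7 of 8 were highest at 15 min in YPS163, 9 of 10 in M22 and 6 of 9 in DBY8268. Of all rows that reached 1 at any time, 25.0% were highest at 15 min in YPS163, 30.5% in M22 and 21.1% in DBY8268. The exceptions were PAU7 in YPS163, PAU17 in M22, and PAU3, PAU5 and PAU7 in DBY8268.

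PAU2 in M22 had 2.19, 0.49, 0.13 and 0.02 at 15, 30, 45 and 60 min, so it was close to 0 by 45 min. PAU6 had 0.95, -0.18, -0.11 and -0.03 in M22, against 1.51, 0.66, 0.32 and 0.17 in DBY8268. Both strains were highest at 15 min. PAU3 stayed at or above 1.48 in DBY8268, with 1.91, 2.24, 1.53 and 1.48, and its course in M22 was 2.25, 1.30, 0.81 and 0.61. PAU7 was low at 15 min, with -0.27 in YPS163, 0.80 in M22 and 0.25 in DBY8268, and in YPS163 and DBY8268 it was highest at 30 min (0.70 and 0.94). PAU5 at 60 min in YPS163 was a lone low value of -1.34, against 0.76 in DBY8268.

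**Figure D3:**
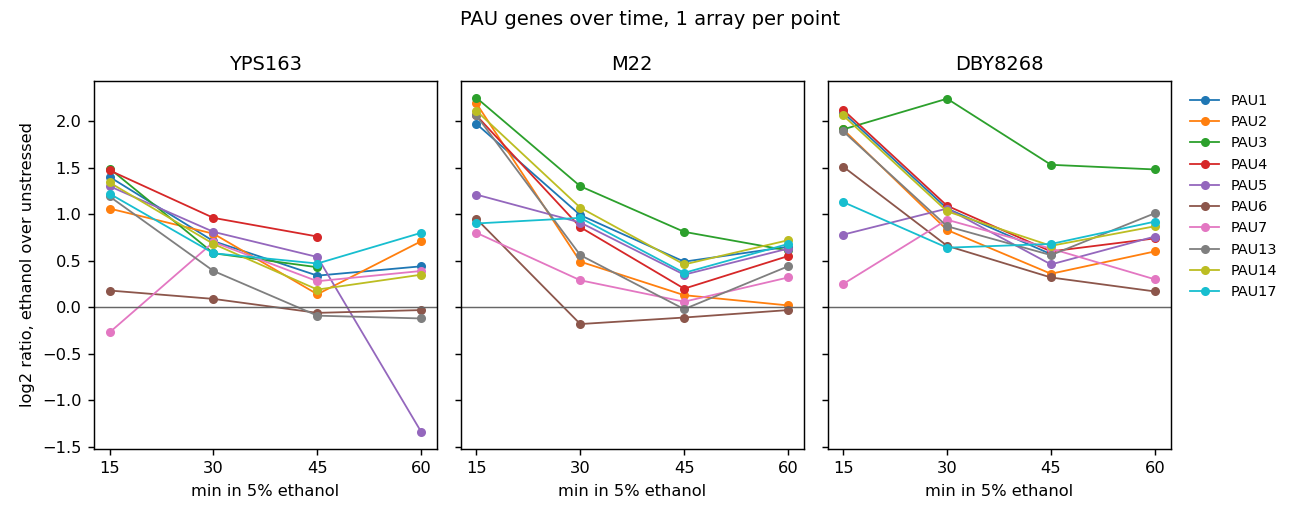
Log2 ratio of ethanol over unstressed cells against minutes in ethanol for each PAU gene, 1 panel per strain and 1 array per point. Most lines fall from 15 to 45 min, PAU3 in DBY8268 stays at or above 1.48, and PAU7 starts low.

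The difference between the responses of the wild strains and of DBY8268 at 30 min was tested directly. For M22 against DBY8268, 0 of 10 members passed in limma and 2 had an unadjusted p under 0.05, while 12.3% of rows passed. All 10 differences were below 0, with a median of -0.42, against 0.09 for all rows. The largest was that of PAU3, at -0.73 ± 0.26 (SE, adjusted p = 0.075), followed by PAU4 (-0.68 ± 0.65) and PAU6 (-0.59 ± 0.2, adjusted p = 0.0635). Without M22 ethanol array 2 the PAU3 difference was -0.94 with an adjusted p of 0.0388. These arrays share the DBY8268 cultures with the next comparison.

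For YPS163 against DBY8268, 1 of 10 members passed and 16.0% of rows did. That member was PAU3, whose response was -1.14 ± 0.26 lower in YPS163 (SE, adjusted p = 0.00456 in limma), a difference of the same sign without any 1 of the 6 arrays (-1.38 to -0.85, adjusted p from 0.00214 to 0.0298). It missed the threshold when only the 2 groups entered the fit (adjusted p = 0.0589) and when arrays were scaled to the same spread (-0.81, adjusted p = 0.25). The other 9 differences lay between -0.2 and 0.25, and their median with PAU3 was -0.15. YPS163 against M22 gave 0 of 10 in limma, 2 at an unadjusted p under 0.05, and 6.32% of rows called, and 9 of the 10 differences were above 0. PAU6 had the lowest adjusted p there (0.52 ± 0.2, SE, adjusted p = 0.161), and without YPS163 ethanol array 1 its value was 0.71 with an adjusted p of 0.0494.

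PAU15, a PAU gene outside the 10, moved with PAU3. Their r was 0.953 over 32 arrays. PAU15 had ratios of 0.89, 0.96 and 0.97 in YPS163, 1.33, 1.72 and 1.61 in M22, and 2.13, 2.83 and 2.24 in DBY8268, and the strains did not overlap. Its response was lower by limma in YPS163 (-1.46 ± 0.19, SE, adjusted p = 1.89e-05) and in M22 (-0.85 ± 0.19, adjusted p = 0.00496) than in DBY8268. Whether PAU3 and PAU15 share probe signal was not tested, and the correlation alone does not make PAU15 a second observation.

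In log phase without ethanol, 8 of 10 fitted member values were below 0 in YPS163 and 7 of 10 in M22 over DBY8268. M22 was lower at 5 members and higher at 1, PAU7, where 18.0% of rows were lower and 12.4% higher. YPS163 was lower at 3 and higher at none, where 14.3% of rows were lower and 8.59% higher. Of 237 tested rows outside the family among the 10 outermost genes at each chromosome end, 82 were lower and 20 higher in YPS163. In M22, 78 of 199 such rows were lower and 25 higher. The members' median was -0.57 in YPS163 and -0.54 in M22, against 0.0 and -0.03 for all rows. The ratios measure hybridised RNA, at probes whose sequences were not used here.

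PAU13, PAU6 and PAU2 were among those lower in M22. PAU13 had log-phase ratios of -0.84, -0.58 and -0.50 in YPS163 and of -1.09, -1.24 and -1.06 in M22, so every array of both strains was below 0 and M22 lay below YPS163. Its fitted values were -0.64 ± 0.19 (SE, adjusted p = 0.0163) and -1.13 ± 0.18 (adjusted p = 6.65e-05). PAU6 had -0.66, -0.77 and -0.05 in YPS163 and -0.69, -0.89 and -0.66 in M22. PAU2 had -0.78, -0.31 and -0.30 in YPS163 and -1.17 and -0.79 in M22. Adjusted limma p-values were 0.016 and 0.000358 for PAU6, and 0.0559 and 0.00105 for PAU2, in YPS163 and M22.

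PAU1 had ratios of -0.93, -0.62 and -0.68 in YPS163 and of -0.72, -0.94 and -0.86 in M22, each below 0, with PAU14 beside it at -0.75 and -0.87. The M22 values passed (adjusted p = 0.0228 for PAU1 and 0.0236 for PAU14) and those of YPS163 did not (0.0574 and 0.0685). PAU17 was lower in YPS163, with -1.23, -0.77 and -0.74 (fitted -0.91 ± 0.2, SE, adjusted p = 0.00219), and had -0.47, -0.38 and -0.10 in M22, which did not pass. PAU7 was the member higher in M22, with ratios of 0.57 and 0.75 on the 2 arrays that gave a value (adjusted p = 0.044), and had -0.23 and 0.45 in YPS163. PAU5 lay above 0 in M22, at 1.04, 0.65 and 0.46, without passing (adjusted p = 0.0758).

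Several of these calls were lost with 1 array fewer. The fitted values of PAU1 (-0.9 to -0.79) and PAU14 (-0.94 to -0.83) in M22 moved little when this was done. With 1 log-phase array of M22 left out, 3, 2 and 3 members passed without arrays 1, 2 and 3, and PAU1, PAU7 and PAU14 failed each time (adjusted p between 0.0571 and 0.28), PAU2 without array 2 (-0.79, adjusted p = 0.0662). Without YPS163 log-phase array 1 only PAU17 passed, PAU13 having -0.54 and PAU6 -0.41 (adjusted p = 0.143 and 0.147), and PAU6 also failed without array 2 (-0.35, adjusted p = 0.144). Array 1 held single values far from its replicates. PAU4 had 3.08 in M22, against -0.42 and -0.26 on arrays 2 and 3, and -2.69 in YPS163, against -0.28 and -0.33. PAU5 had 1.45 in YPS163, against -0.20 and -0.30. The direction of PAU4 in M22 and of PAU5 in YPS163 rests on that 1 array. With both arrays numbered 1 left out, 0 members passed in YPS163.

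**Figure D4:**
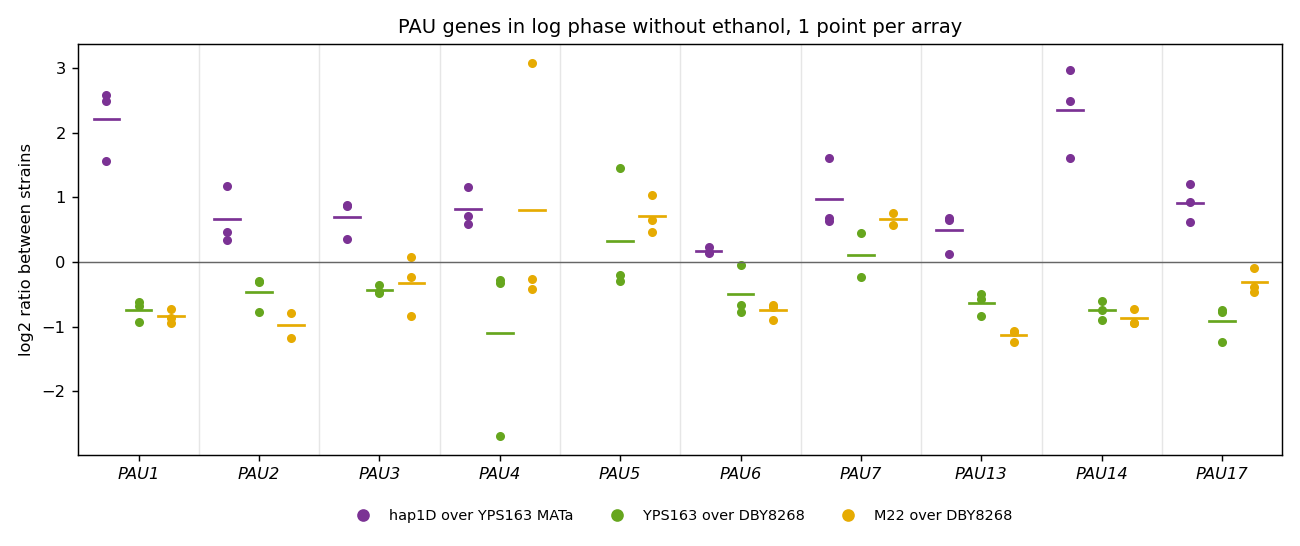
Log2 ratio between strains in log phase without ethanol for each PAU gene, 1 point per array with a bar at the mean, in the order hap1D over YPS163 MATa, YPS163 over DBY8268 and M22 over DBY8268. The hap1D points lie above 0 at every gene with a value, most wild-strain points lie below 0, and PAU4 has lone points at 3.08 and -2.69.

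Adding the log-phase ratio to the difference of responses gives the level in ethanol of a wild strain over that of DBY8268 in ethanol. This contrast reuses the arrays of the preceding ones and is not a new observation. In YPS163, 2 members were lower and none higher, where 7.45% of rows were lower and 7.83% higher, PAU3 at -1.57 ± 0.32 (SE, adjusted p = 0.00164 in limma) and PAU17 at -1.06 ± 0.35 (adjusted p = 0.0435). In M22, 4 members were lower and none higher, where 6.19% of rows were lower and 7.34% higher. They were PAU13 at -1.44 ± 0.32 (adjusted p = 0.00371), PAU6 at -1.33 ± 0.25 (0.000735), PAU2 at -1.24 ± 0.32 (0.0108) and PAU3 at -1.06 ± 0.32 (0.0296). Of rows outside the family among the 10 outermost genes at each chromosome end, 49 of 214 were lower and 15 higher in YPS163. In M22, 38 of 194 such rows were lower and 15 higher. PAU3 in YPS163 has a fitted fold of 0.338. These sums depend on the direction of the log-phase ratios, which the labels do not state. With that sign turned no member passed in YPS163, where PAU3 had -0.71 and PAU17 0.77. In M22 PAU13 then had 0.82, PAU6 0.16, PAU2 0.72 and PAU3 -0.4, none of which passed, and PAU7 passed at -1.15 (adjusted p = 0.0247). PAU17 in YPS163 missed the threshold without 5 of the 9 arrays concerned (-1.15 to -0.64) and PAU3 in M22 without 6 of 9 (-1.1 to -0.81), and PAU2 in M22 without log-phase array 2 (-1.05, adjusted p = 0.0893). PAU6 in YPS163 was -0.56, and -0.78 with an adjusted p of 0.0352 without log-phase array 3.

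The msn2D strain lacks Msn2, an activator of the general stress response, and PAU genes rose without it. The labels name no other deletion in that strain, so it concerns Msn2 alone. Of 9 members, 6 rose and none fell, where 21.0% of rows rose and 22.4% fell, with a median of 0.82 against -0.03 for all rows. PAU14 had ratios of 1.05, 1.09 and 1.22 in msn2D, against 1.06 and 1.05 in YPS163 MATa, and the groups interleaved. PAU17 had 0.98, 0.97 and 1.03 in msn2D, against 0.85 and 1.14 in YPS163 MATa. PAU1 had 1.21 and 1.22 in msn2D, against 0.98 and 1.04 in YPS163 MATa.

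The test of msn2D against YPS163 MATa called 0 of 9 members in limma and 0 at an unadjusted p under 0.05, where 8.75% of rows were called. The members' median difference was -0.01, and the largest in size was that of PAU7 (-0.48 ± 0.31, SE, adjusted p = 0.384). PAU7 had 0.23, 0.34 and 0.34 in msn2D, against 0.68 and 0.88 in YPS163 MATa. The groups did not overlap for this gene or for PAU2, which had 0.63, 0.80 and 0.56 in msn2D, against 1.16 and 1.05 in YPS163 MATa (-0.44 ± 0.27, adjusted p = 0.338). With so few arrays, groups can separate without any difference, and the share of all rows that did so is not given. The test does not show that the strains respond alike. PAU4 (1.09 ± 0.47), PAU6 (0.33 ± 0.14) and PAU7 (0.3 ± 0.2) did not pass in msn2D, and each did in a fit of the msn2D arrays alone. PAU1, measured on 2 arrays, failed without either of them (adjusted p = 0.0655 and 0.0647).

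In hap1D, 6 of 9 PAU genes were higher than in YPS163 MATa before any stress and none was lower, where 1.32% of all rows were higher and 1.67% lower. The members' median was 0.82, against 0.0 for all rows. The 3 arrays of this comparison correlated at 0.184 to 0.645 with each other over all rows. PAU1 and PAU14 had the highest fitted values of the members. PAU1 had log-phase ratios of 1.56, 2.49 and 2.58, and PAU14 of 1.61, 2.49 and 2.96. Every array was above the highest value of PAU2, PAU3, PAU4, PAU6, PAU13 and PAU17 there, which was 1.21, but PAU7 reached 1.61 on array 1, as high as the lowest PAU14 array and above the lowest PAU1 array. The fitted folds were 4.63 for PAU1 (2.21 ± 0.28 log2, SE, adjusted p = 3.94e-05 in limma) and 5.11 for PAU14 (2.35 ± 0.29, adjusted p = 2.63e-05). With arrays scaled to the same spread the values were 6.07 for PAU1 and 6.42 for PAU14, and all 9 members passed, as did 1651 of 6059 rows.

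The other members higher in hap1D changed by less. PAU7 had ratios of 1.61, 0.68 and 0.63, and PAU17 of 1.21, 0.61 and 0.93. PAU3 had 0.88, 0.35 and 0.86, and PAU2 had 1.17, 0.47 and 0.34. All were above 0, with fitted values of 0.97, 0.92, 0.7 and 0.66. PAU4 (0.82 ± 0.46, SE), PAU13 (0.49 ± 0.19) and PAU6 (0.17 ± 0.14) did not pass, although their arrays also lay above 0. Without log-phase array 1, only PAU1 and PAU14 passed, and PAU7, PAU17, PAU3 and PAU2 had 0.66, 0.77, 0.6 and 0.41 (adjusted p from 0.231 to 0.723). PAU2 also failed without array 2 (0.76), and PAU3 (0.61) and PAU17 (0.91) without array 3. With replicate number as a block, PAU2 and PAU3 missed the threshold (adjusted p = 0.0588 and 0.0639). In a fit of the 3 hap1D log-phase arrays alone, 0 members passed and 28 of 6059 rows did, with adjusted p-values of 0.0674 for PAU1 and 0.0787 for PAU14.

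After 30 min in ethanol, 4 of 9 members rose in hap1D, and PAU1 and PAU14 were not among them. The 4 were PAU2, PAU3, PAU13 and PAU17, and 26.8% of rows rose and 27.7% fell. The members' median was 0.72, against 0.02 for all rows. PAU1 had ethanol ratios of 0.90, -0.47 and -1.02 in hap1D, against 0.98 and 1.04 in YPS163 MATa. PAU14 had 0.93, -0.53 and -1.21 in hap1D, against 1.06 and 1.05 in YPS163 MATa. All hap1D arrays lay below all YPS163 MATa arrays at both genes, but array 1 was close to YPS163 MATa and arrays 2 and 3 fell below 0. The means were -0.2 ± 0.99 for PAU1 and -0.27 ± 1.09 for PAU14 (SD, n = 3), which did not pass in either direction. Without array 1 they were -0.74 and -0.87 (adjusted p = 0.0287 and 0.0147), and PAU13 no longer passed (0.47, adjusted p = 0.0815).

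The difference of responses between hap1D and YPS163 MATa called 0 of 9 members in limma, where 0.0926% of rows were called, and 2 had an unadjusted p under 0.05. Those were the pair with shared signal, PAU1 (-1.21 ± 0.43, SE, adjusted p = 0.46) and PAU14 (-1.32 ± 0.45, adjusted p = 0.415). The other 7 differences lay between -0.38 and -0.08. Without hap1D ethanol array 1 the PAU14 difference was -1.93 with an adjusted p of 0.0344. With array 1 left out of both hap1D groups, a choice made after the values were seen, PAU1 (-1.75) and PAU14 (-1.93) passed (adjusted p = 0.0357 each). The hap1D arrays numbered 1 gave both the lowest log-phase and the highest ethanol ratios of these genes. Unstressed hap1D cells are on top in the log-phase ratio and at the bottom in the ethanol ratio. An error shared by both would move the 2 ratios in opposite directions, and this was not tested. The sum of the log-phase ratio and the response difference put the level of hap1D in ethanol over that of YPS163 MATa in ethanol at 1.0 ± 0.51 for PAU1 and 1.03 ± 0.54 for PAU14 (SE).

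DAN1 and DAN4, the anaerobic mannoprotein genes, also had high log-phase and negative ethanol ratios in hap1D. Here too, unstressed hap1D cells enter both ratios, on opposite sides. DAN1 had log-phase ratios of 7.05, 5.64 and 4.99 in hap1D over YPS163 MATa, and ethanol ratios of -2.58, -2.44 and -2.61 in hap1D. DAN4 had 5.69, 3.34 and 3.46 in log phase, and -2.29, -2.33 and -2.23 in ethanol. The log-phase values (5.89 and 4.16, adjusted p = 2.63e-05 and 4.19e-06 in limma) and the ethanol falls (-2.54 and -2.28, adjusted p = 0.000207 and 0.000113) passed for both genes. Of the 6 DAN and TIR genes, 3 were higher in log phase and the same number fell in ethanol, TIR3 being the third with 1.28 and -1.33. Of all rows, 1.32% were higher in log phase and 27.7% fell in ethanol. TIR1 had 1.01 ± 0.41 in log phase and -0.72 ± 0.41 in ethanol (SE), without passing. The difference of the DAN4 response between hap1D and YPS163 MATa was -2.44 ± 0.63 (adjusted p = 0.246), and DAN1 had 1 YPS163 MATa value (-1.53) and was not tested there.

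**Figure D5:**
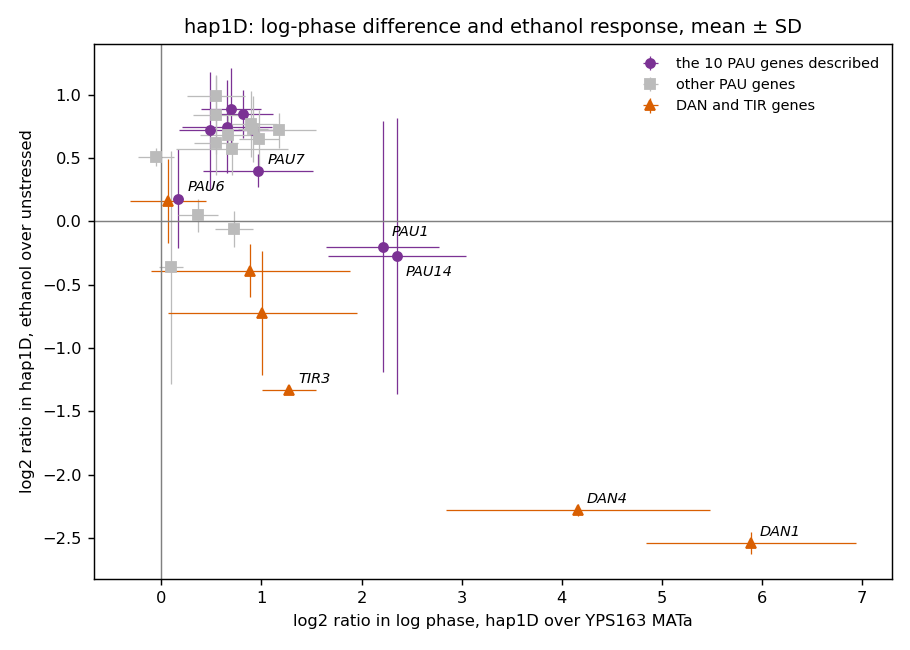
For each PAU, DAN and TIR gene, the log2 ratio of hap1D over YPS163 MATa in log phase (horizontal) against the log2 ratio of ethanol over unstressed cells in hap1D (vertical), as group means with SD bars over 2 or 3 arrays. Unstressed hap1D cells enter both axes, on opposite sides. DAN1 (5.89, -2.54) and DAN4 lie at the lower right, and PAU1 and PAU14 lie between them and the other PAU genes, none of which passes 1.18 on the horizontal axis.

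Among regulators of anaerobic genes, ROX1, the repressor gene, was lower in hap1D in log phase, with -1.01, -1.04 and -1.09 (fitted -1.05 ± 0.25, SE, adjusted p = 0.0229). Beside the deleted HAP1, whose value set the direction of these arrays, ROX1 was the one regulator of the list that was lower, and none was higher. UPC2, the activator gene, had 0.78 ± 0.31 and did not pass. Of 11 other hypoxic genes 3 were higher, FET4 (1.59), an iron transporter gene, HEM13 (1.41), for haem synthesis, and AAC3 (1.05), a mitochondrial carrier gene, and 1 was lower, the fatty acid desaturase gene OLE1 (-0.93). Of all rows there, 1.32% were higher and 1.67% lower.

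Regulators of anaerobic genes and the DAN and TIR genes were counted in the same way, beside the 30.5%, 32.2% and 28.6% of all rows that rose in YPS163, M22 and DBY8268. The shares of all rows that fell were 30.0%, 29.8% and 31.1%. Of 8 regulators 1, 1 and 0 rose in YPS163, M22 and DBY8268, and of the DAN and TIR genes 0 of 3, 1 of 3 and 1 of 4. UPC2 fell in YPS163 (-1.74 ± 0.31, SE), M22 (-1.25 ± 0.31) and DBY8268 (-0.91 ± 0.31), and 5, 4 and 4 of 8 regulators fell there. HAP1 fell in each as well (-0.65, -0.64 and -0.48). ROX1 had -0.65 in YPS163, which passed (adjusted p = 0.0268), -0.47 in M22 and -0.19 in DBY8268, which did not. Among the DAN and TIR genes, TIR3 fell in YPS163 MATa (-1.96 ± 0.24), YPS163 (-2.02 ± 0.2) and M22 (-1.81 ± 0.2), and had -0.23 ± 0.2 in DBY8268. DAN4 rose in M22 (1.22 ± 0.4) and DBY8268 (1.4 ± 0.4), and had 0.64 ± 0.4 in YPS163. TIR1 passed in no ethanol response, with fitted values between -0.72 and 0.45 over the 6 strains. TIR3 was also higher in log phase in YPS163 (1.91) and M22 (1.86) over DBY8268, the opposite direction to most PAU members.

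Counts of other hypoxic genes were near the shares of all rows in DBY8268, 28.6% higher and 31.1% lower. In DBY8268, 3 of 10 rose and 3 fell, with COX5B (2.96) and CYC7 (2.14), for hypoxic forms of respiratory proteins, at one end and OLE1 (-2.66) at the other. In M22, 4 rose and 5 fell, and in YPS163, 3 rose and 4 fell, with OLE1 at -3.31 in YPS163 and -2.84 in M22. Of all rows, 32.2% rose and 29.8% fell in M22, and 30.5% rose and 30.0% fell in YPS163. HAP1 was lower in log phase in YPS163 (-1.1 ± 0.16, SE) and M22 (-1.32 ± 0.15) than in DBY8268. These are RNA ratios, and the activity of the Hap1 protein was not measured in any strain.

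Within the family, most of the other PAU genes followed the 10. Of the 14, 8 of 12 tested rose in YPS163, 9 of 13 in M22 and 9 of 12 in DBY8268, beside 30.5%, 32.2% and 28.6% of all rows. In log phase 6 of 12 were lower in YPS163 and 6 of 12 in M22 than in DBY8268, and none was higher. Of all rows, 14.3% were lower and 8.59% higher in YPS163, and 18.0% were lower and 12.4% higher in M22. In hap1D over YPS163 MATa 6 of 13 were higher, where 1.32% of all rows were. The largest value was 1.18 (PAU24), so PAU1 and PAU14 kept the largest values of the 22 PAU genes tested. Some genes went another way. PAU21 fell in YPS163 (-0.52 ± 0.18, SE, adjusted p = 0.0208) and in DBY8268 (-0.88 ± 0.18, adjusted p = 0.000531). PAU18 and PAU19 fell in M22 (-0.93 ± 0.29 and -0.56 ± 0.17) and passed neither way in DBY8268. PAU10, PAU12 and PAU16 were lower in M22 in log phase by larger amounts than the 10, at -1.22, -1.29 and -1.52.

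Position on the chromosome was described from the order of annotated genes. PAU1, PAU6 and PAU14 are the second gene from an end, of chromosomes X, XIV and IX, while PAU3, PAU4 and PAU13 are the fifth or the sixth, on chromosomes III, XII and VIII. PAU7, PAU2, PAU17 and PAU5 lie further inside, at gene ranks 18, 34, 40 and 48 from the end of chromosomes I, V, XII and VI. In DBY8268 the 6 outer members had a median ethanol response of 1.46 and the 4 inner ones of 1.21, while 261 tested rows of other genes among the 10 outermost at each end had 0.3. In hap1D over YPS163 MATa the medians were 0.76 for outer members, 0.92 for inner members and -0.04 for 255 other outer rows, of which 7 were higher and 8 lower. The neighbours of PAU1, VTH2 (-0.2) and IMA4 (-0.26), had means below 0 in that comparison (n = 3 each). Those of PAU14, YIL177C (-0.22) and YIL175W (0.18), lay near 0 (n = 3 each). YIL174W, the second inward from PAU14, had 0.94 on its 1 array. Neighbours of other members differed. Near PAU2, FRD1 had 0.93 and TCA17 0.23 (n = 3 each). Near PAU13, ARN2 had 0.85, DFP4 0.46 and COS8 -0.41 (n = 3 each), and PXP3 had 0.16 (n = 2). In M22 over DBY8268 in log phase the medians were -0.79 for outer members and 0.17 for inner members. The 199 other outer rows had -0.33, and 78 of them were lower and 25 higher. In YPS163 over DBY8268 the medians were -0.69 for outer members and -0.18 for inner members. The 237 other outer rows there had -0.22, and 82 of them were lower and 20 higher.

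Outside the family, the 10 rows most like the mean of the members were found over all used arrays among 5026 rows with at least 30 values. The most alike was YDL085C-A (r = 0.863, 31 arrays), then TIP1 (0.84, 34 arrays), which encodes a cell-wall mannoprotein, and CUP1-1 (0.798), which encodes a copper-binding metallothionein. SIS1 (0.784) and HSP82 (0.783), both chaperone genes, ROG3 (0.786), SNG1 (0.775), YGR027W-A (0.78), YDR365W-A (0.776) and YDR316W-A (0.774) made up the rest. The median r of all ranked rows was 0.013. The arrays share strains and treatments, so these values are a description.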

How the data were processed

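Total RNA from log-phase yeast cultures was extracted with hot phenol, labelled indirectly through amino-allyl nucleotides and hybridised in pairs, per the labels' protocols. The authors deposited 1 table of ratios, whose values are read as log2 ratios of the channels from their range. The labels state neither log base nor direction, and how the arrays were scanned, background-corrected and normalised is not stated in them either. Dyes were swapped on the array numbered 2 of each group, and the deposited values run 1 way within a group. Direction was taken from the values. HAP1 set that of the hap1D log-phase arrays, whose sign was turned. The wild-strain log-phase arrays were kept as deposited, although their titles name DBY8268 first, as those of hap1D name YPS163 MATa first. Rows under -4 in M22 over DBY8268 lacked 30.2% of values on M22 ethanol arrays and 3.7% on DBY8268 ethanol arrays. For rows under -4 in YPS163 over DBY8268 the shares were 30.4% on YPS163 and 6.5% on DBY8268 ethanol arrays. Of 6295 rows, 5830 matched an annotated locus tag, in a RefSeq table used for names and gene order alone.

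The log-phase and 30 min arrays, less YPS163 MATa array 3, formed 9 groups and were fitted with limma 3.58.1 (R 4.3.3), 1 mean per group, with eBayes and Benjamini-Hochberg adjustment over all rows of a contrast. A row was tested with at least 2 values in each group and called at an adjusted p under 0.05. Time-course arrays stayed out of the fit. Where arrays of 2 groups are said not to overlap, this describes the values, and the share of all rows so separated is not given. The script was tested on simulated data. The members and the gene lists (other PAU genes, DAN and TIR genes, regulators, hypoxic genes) were chosen with earlier results of these data known. All members are described. From each list at most 4 called genes with the largest values are named per comparison, plus TIR1, DAN1, UPC2, HAP1 and ROX1, and further PAU genes named were chosen after their values were seen. Alternatives changed the scaling, a dye term, a replicate block, the groups fitted, the filter on missing values, the treatment of YPS163 MATa array 3, and left out each array. Same-numbered ethanol arrays of YPS163, M22 and DBY8268 deviated together (r from 0.237 to 0.596 over 9 pairs of arrays), so the numbers pair these strains, though number and dye orientation are partly inseparable. Over all ethanol groups 15 of 40 same-numbered pairs exceeded 0.1, as did 27 of 80 pairs with different numbers, so the numbers do not pair the groups in general. Tables and figures were made with python 3.11.15, pandas 2.3.3, numpy 2.4.6 and matplotlib 3.10.9.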

Additional observations from a re-analysis of the deposited data

Results flagged for a closer look

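The PAU3 response to ethanol differed between YPS163 and DBY8268 in limma (-1.14), as did that of PAU15 (-1.46), and PAU15 also differed between M22 and DBY8268 (-0.85). Both genes rose in all 3 strains.

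PAU19 had ethanol ratios of -0.55, -0.78 and -0.34 in M22, against 0.46, 0.45 and 0.26 in DBY8268, a difference of -0.95 ± 0.24 (SE, adjusted p = 0.0142). Every array of M22 was below 0 and every array of DBY8268 above it. PAU21 had -0.62, 0.16 and 0.45 in M22, against -1.17, -0.84 and -0.62 in DBY8268, a difference of 0.87 ± 0.26 (adjusted p = 0.0351).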

How the results depend on the processing

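Counts of members called moved by over 1.5 times under these settings. With arrays scaled to the same spread, the counts were 1 (hap1D), 1 (YPS163 MATa), 6 (YPS163), 2 (M22) and 6 (DBY8268) in ethanol, 5 for YPS163 in log phase, 0 for the response of YPS163 minus DBY8268 and 1 for YPS163 over DBY8268 in ethanol. With only rows complete on every array, which tests 6 members, they were 4, 6, 4 and 6 in ethanol (YPS163 MATa, YPS163, M22, DBY8268), 3 for hap1D and 3 for M22 in log phase. With only the groups compared in the fit they were 0 for hap1D and 0 for YPS163 in log phase, 0 for the response of YPS163 minus DBY8268 and 1 for YPS163 over DBY8268 in ethanol. With YPS163 MATa array 3 as deposited they were 1 for YPS163 and 2 for M22 over DBY8268 in ethanol. Of settings chosen after seeing the data, leaving out both hap1D arrays numbered 1 gave 2 for hap1D in log phase and 2 for the response of hap1D minus YPS163 MATa. Leaving out the log-phase arrays numbered 1 of M22 and YPS163 gave 0 for YPS163 in log phase, 1 for the response of M22 minus DBY8268 and 1 for YPS163 over DBY8268 in ethanol, and turned PAU4 in M22 over DBY8268 in ethanol to -1.02 (0.12 with them). Turning the sign of the log-phase arrays gave 0 for YPS163 and 1 for M22 over DBY8268 in ethanol, with the sign changed for PAU17 in YPS163 (0.77) and for PAU7 (-1.15), PAU2 (0.72), PAU13 (0.82) and PAU6 (0.16) in M22. The causes of these moves were not tested.

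With each array left out in turn, the counts in ethanol were 4 to 5 (hap1D), 5 to 6 (msn2D), 3 to 3 (YPS163 MATa), 8 to 10 (YPS163), 7 to 8 (M22) and 9 to 10 (DBY8268). These counts hold passes in either direction. The 5 in hap1D came without ethanol array 1, where PAU1 (-0.74) and PAU14 (-0.87) passed as lower and PAU13 no longer passed. In log phase the counts were 2 to 5 (hap1D), 1 to 3 (YPS163) and 2 to 3 (M22). For differences of responses they were 0 to 1 (hap1D minus YPS163 MATa), 0 to 0 (msn2D minus YPS163 MATa), 0 to 0 (YPS163 MATa minus YPS163), 1 to 1 (YPS163 minus DBY8268), 0 to 1 (YPS163 minus M22) and 0 to 1 (M22 minus DBY8268), and in ethanol 1 to 2 (YPS163 over DBY8268) and 2 to 4 (M22 over DBY8268).

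The replicate block changed 3 calls, PAU7 in M22 in log phase (0.60, adjusted p = 0.0793), and PAU3 (0.70, 0.0639) and PAU2 (0.66, 0.0588) in hap1D in log phase. A block over the ethanol arrays of YPS163, M22 and DBY8268 alone added PAU4 in M22 (0.82, adjusted p = 0.00178), as did that fit without a block. Of 2154 member values compared with the values reported, 118 lost a pass, 40 gained one, and 103 that passed in neither fit changed sign, the largest of 1.24 in size. With 2 or 3 arrays a group and no intensities, signal over background is unknown.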
